A study of Mus musculus with 2 samples.

Results

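The 6 genes described here are microRNA genes of lymphocytes and hosts of microRNAs. They are Mir17hg, Mir142, Mir155, Mir150, Mir146 and Arpp21, chosen by name from 53843 genes of the GENCODE M21 annotation on chromosomes 1 to 19 and X, of which 2196 are microRNA genes. Each was read as its gene body plus 20 kb on either side, on mm10. The data come from thymus of 2 female B6CASTF1/J mice, F1 hybrids of C57BL/6J and CAST/EiJ, that were 36 days old and are labelled as biological replicates 1 and 2. The labels give no treatment and no engineered allele. Each mouse gave 1 DNase-seq library and both form 1 group, so no conditions could be compared. Reads of both parental genomes were placed on the C57BL/6J reference, and sequences printed below are that reference.

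A microRNA is a short RNA cut from a hairpin in a longer primary transcript, first by Drosha and Dgcr8 in the nucleus and then by Dicer1 in the cytoplasm. Loaded into an Argonaute protein, it pairs through its seed, bases 2 to 8, with messenger RNAs and lowers their translation and stability. The Mir17hg transcript holds the miR-17-92 cluster, which is known for promoting the growth and survival of lymphocyte precursors. Mir142 is used across blood cells, Mir155 is induced when lymphocytes are activated, Mir150 is abundant in mature lymphocytes and targets Myb, and Mir146 is an NF-kB target that restrains Traf6 and Irak1. Arpp21, an RNA-binding phosphoprotein gene used in neurons and immature thymocytes, carries a copy of miR-128 in an intron.

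The mature sequences show which of these hairpins act through a common seed. They are given 5′ to 3′ from RefSeq on GRCm38.p6, with the seed in capitals. The RefSeq table held mature sequences for all 11 hairpins annotated on the strand of the 6 genes. 4 mature sequences of the Mir17hg transcript fell into 2 pairs with identical seeds, miR-17-5p with miR-20a-5p and miR-19a-3p with miR-19b-3p.
miR-17-5p: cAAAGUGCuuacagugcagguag
miR-20a-5p: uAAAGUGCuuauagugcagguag
miR-19a-3p: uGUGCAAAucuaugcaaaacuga
miR-19b-3p: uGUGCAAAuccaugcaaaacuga
miR-18a-5p: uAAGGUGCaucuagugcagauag
miR-92a-3p: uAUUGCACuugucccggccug

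The other 5 hairpins gave mature sequences whose seeds differed from these and from each other. For Mir150 the RefSeq table held only miR-150-3p, so the seed of its 5p sequence was not compared.
miR-142a-5p: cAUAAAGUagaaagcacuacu
miR-142a-3p: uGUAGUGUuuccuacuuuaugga
miR-155-5p: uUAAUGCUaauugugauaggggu
miR-150-3p: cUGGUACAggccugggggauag
miR-146a-5p: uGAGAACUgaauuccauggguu
miR-128-3p: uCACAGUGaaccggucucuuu

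Accessibility was measured in 3 ways in each library. Peaks are the authors' calls of DNase I hypersensitive sites, taken from the shorter of 2 lists deposited for each library. The value given with each peak is called signal here, and its scale is not named in the sources used here. Runs are stretches of touching bases with a deposited cut-rate FDR below 0.05, and footprints are short stretches protected from cutting within accessible DNA. The shorter lists held 59484 peaks in mouse 1 and 72913 in mouse 2, with median signals of 1.23 and 1.45. Signals were whole multiples of 1 step, 0.00638 in mouse 1 and 0.00504 in mouse 2. Among all 46817 pairs of shared peaks, signal was higher in mouse 2 by a median of 0.75 on the log2 scale. That shift was -0.06 in the lowest of 10 groups by GC content and 1.56 in the highest, so levels of the 2 mice are given side by side. All 7 thymocyte markers had a promoter peak in both mice, against 56.6% of protein-coding genes. Of markers of other cells, the count was 1 of 5 for B cells, 2 of 6 for myeloid cells, 1 of 5 for thymic epithelium, 4 of 5 for endothelium and mesenchyme and 2 of 4 for erythroid cells. Ms4a1, Cd79a, Csf1r, Adgre1, C1qa, Foxn1, Krt8, Krt5, Psmb11, Cdh5, Klf1 and Alas2 were among those with none in either mouse. In whole tissue, a site open in fewer cells and a site less open per cell cannot be told apart.

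The 6 genes covered a wide range of accessibility, and Mir142 and Mir150 stood at the top. The window of Mir142 held 25 peaks in mouse 1 and 29 in mouse 2, or 6.74 ± 0.706 peaks per 10 kb (SD, n = 2). The window of Mir150 held 17 and 11 peaks, or 3.49 ± 1.06 per 10 kb. Over all genes, taking the mean of both mice for each gene, the median was 0.247 per 10 kb and the 90th percentile 1.37. Both windows lay above that percentile in each mouse. Mir17hg held 7 and 4 peaks, or 1.25 ± 0.484 per 10 kb, a density above that of 88.2% of genes. Its values fell on either side of that 90th percentile, at 1.596 in mouse 1 and 0.912 in mouse 2. A 90th percentile for each mouse alone was not computed.

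The other 3 genes lay closer to the middle of the distribution. Mir146 held 3 peaks in each mouse, 0.749 per 10 kb, above 76.0% of genes. Arpp21, with a window of 210.8 kb against 40.1 kb for the hairpin genes, held 10 and 18 peaks, or 0.664 ± 0.268 per 10 kb, above 72.04% of genes. Mir155 held 3 and 2 peaks, or 0.624 ± 0.176 per 10 kb, above 70.9% of genes. The order of Mir146, Arpp21 and Mir155 differed between the mice, since Arpp21 was the lowest of the 3 in mouse 1 and the highest in mouse 2. Mir142 and Mir150 were first and second in both mice.

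**Figure D1:**
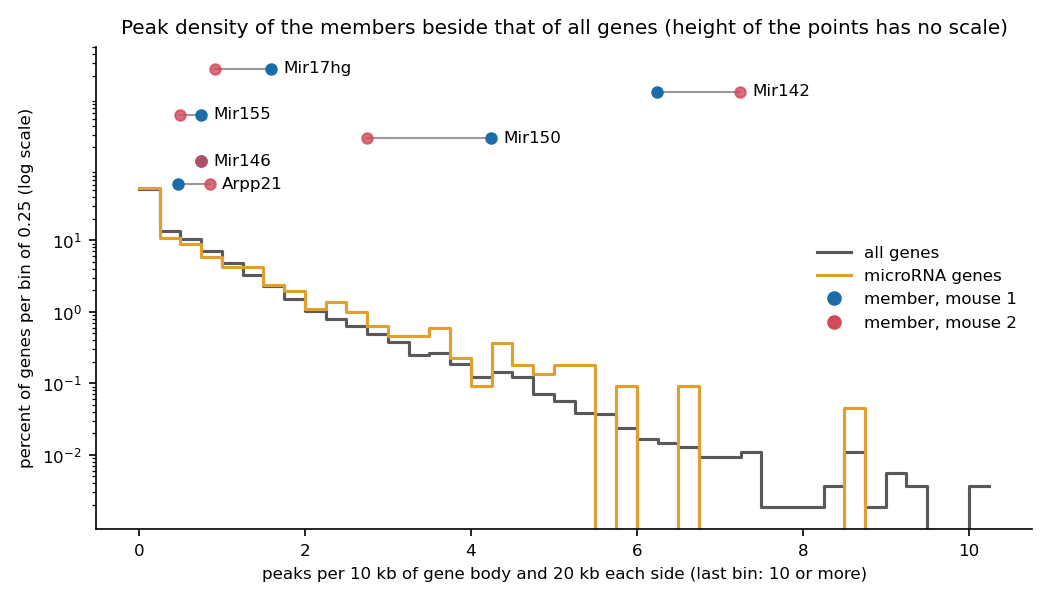
Peaks per 10 kb in the window of each of the 6 genes (points, 1 per mouse; their height has no scale) above the share of all genes and of all microRNA genes per bin of 0.25 (lines, log axis). Mir142, at 6.24 and 7.24, and Mir150, at 4.24 and 2.75, lie right of the other 4 genes.

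The share of each window inside runs gave the same first pair. Runs covered 41.0% and 42.7% of the Mir142 window and 29.3% and 17.9% of the Mir150 window. They covered 7.03% and 7.44% of the Mir17hg window, 3.42% and 4.62% of the Mir146 window, 3.05% and 4.54% of the Arpp21 window, and 3.09% and 2.62% of the Mir155 window. The medians over all genes were 1.08% and 1.47%. Only the Mir150 window was covered less in mouse 2 by more than 10 percentage points.

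A promoter peak, within 1000 bp of an annotated start of the gene, was present in both mice at 4 of the 6 genes, Mir17hg, Mir142, Mir150 and Arpp21. The same held for 29.7% of all genes, 56.6% of protein-coding genes and 11.4% of microRNA genes. Mir155 had one in mouse 1 only and Mir146 in neither mouse. The start that GENCODE gives Mir142, Mir155, Mir150 and Mir146 is the end of the hairpin, not of the primary transcript. With the starts of the host transcripts Mir142hg and Mir155hg in place of the hairpins, the count was 5 of 6, Mir146 being the gene without one. With 500 bp on either side it was 3, since the peak nearest to the Mir17hg start in mouse 2 lay farther off than that.

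**Figure D2:**
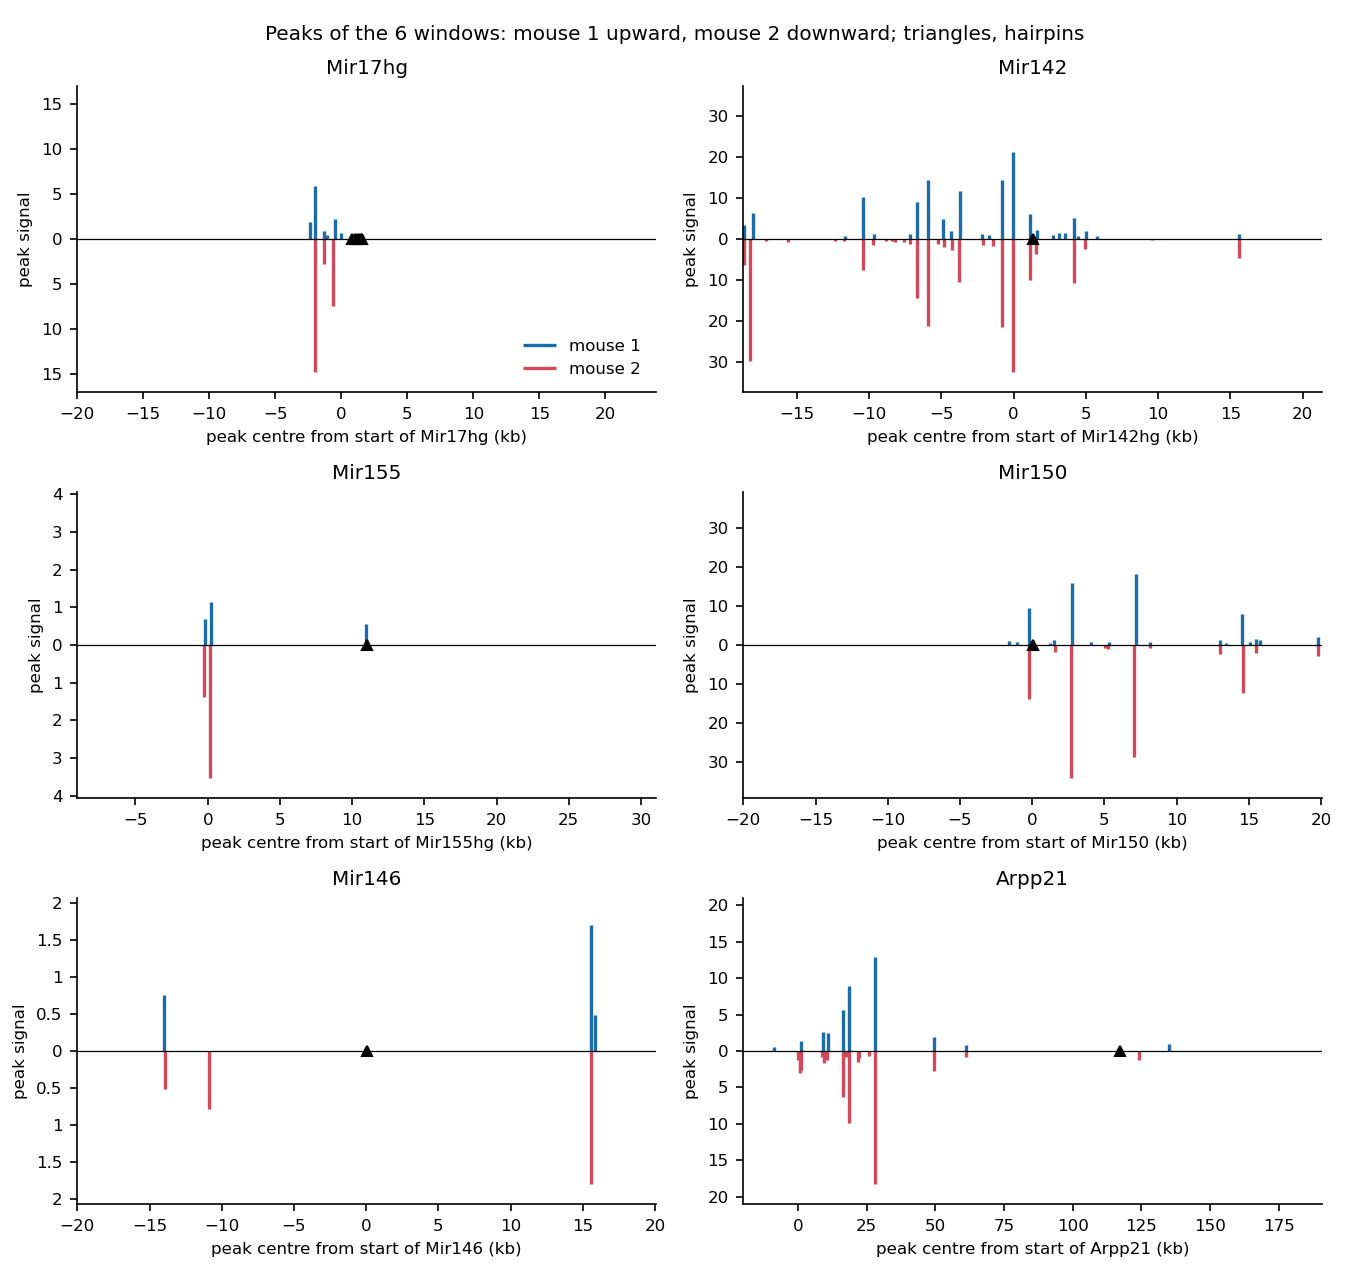
Signal of each peak against the distance of its centre from the most upstream start of the host, in the direction of transcription, for mouse 1 (upward, blue) and mouse 2 (downward, red), with triangles at the hairpins. The axis of signal differs between panels, reaching 32.5 at Mir142 and 1.80 at Mir146.

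Mir142 lies at chr11:87756864-87756927 on the plus strand, inside the noncoding host Mir142hg (chr11:87755577-87757270), and Mir142b is annotated over it on the other strand. The strongest peak of the window lay on the start of Mir142hg, at chr11:87755401-87755640 in mouse 1 and chr11:87755421-87755620 in mouse 2. It reached 21.3 in mouse 1 and 32.5 in mouse 2, higher than 99.5% and 98.5% of all peaks of the list. The part called in both mice follows, on the plus strand, with capitals for bases inside footprints of both mice. The peak is shown since it is the strongest of the 6 windows away from starts of unrelated genes.
Mir142hg start peak, chr11:87755421-87755620: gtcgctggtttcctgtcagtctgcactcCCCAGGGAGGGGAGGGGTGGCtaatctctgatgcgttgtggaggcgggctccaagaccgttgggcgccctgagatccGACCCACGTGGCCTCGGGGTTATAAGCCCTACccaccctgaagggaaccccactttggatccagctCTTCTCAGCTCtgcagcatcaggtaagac

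Footprints covered 96 of these 200 bases in mouse 1 and 72 in mouse 2, and 64 in both. The MYC pattern CACGTG matched once and lay within footprints of both mice, a match being counted within footprints here only when all of its bases are. Of 59453 peaks of mouse 1, 6.13% held that pattern in a central stretch of the same length.

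Upstream of Mir142hg the peaks formed a row. A peak centred 826 bp upstream of the start had signals of 14.5 and 21.5, and one centred 5956 bp upstream 14.4 and 21.2. Peaks at chr11:87748781-87749000 and chr11:87751781-87751920, also upstream, had 9.004 and 14.3, and 11.7 and 10.6. These 4 upstream peaks were called in both mice, and in mouse 2 each was at 10.6 or higher. Farther upstream, chr11:87745041-87745260 had 10.17 in mouse 1 and 7.61 in mouse 2. The strongest window peak of an unrelated gene lay at the start of Supt4a, an elongation factor gene, with 6.39 and 29.9. At the start of Tspoap1, an adaptor protein gene on the downstream side, the higher of the peaks had 5.17 and 10.8. 6 peaks of the window in each mouse lay within 1 kb of the start of such a neighbouring gene.

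The long runs of the Mir142 window matched this row. In mouse 1 a run of 4392 bp extended from 2423 bp upstream of the Mir142hg start to 1968 bp downstream, with 6 peaks and 34 footprints. A run of 4385 bp lay just upstream of it. In mouse 2 the upstream run was the longer, at 4903 bp with 8 peaks and 34 footprints, and the run over the start measured 2770 bp. All 4 were longer than 99.8% of the runs of their library, whose medians were 22 bp and 64 bp. In mouse 2 the run over the start ended 284 bp into the transcript, and the hairpin lay in another run.

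**Figure D3:**
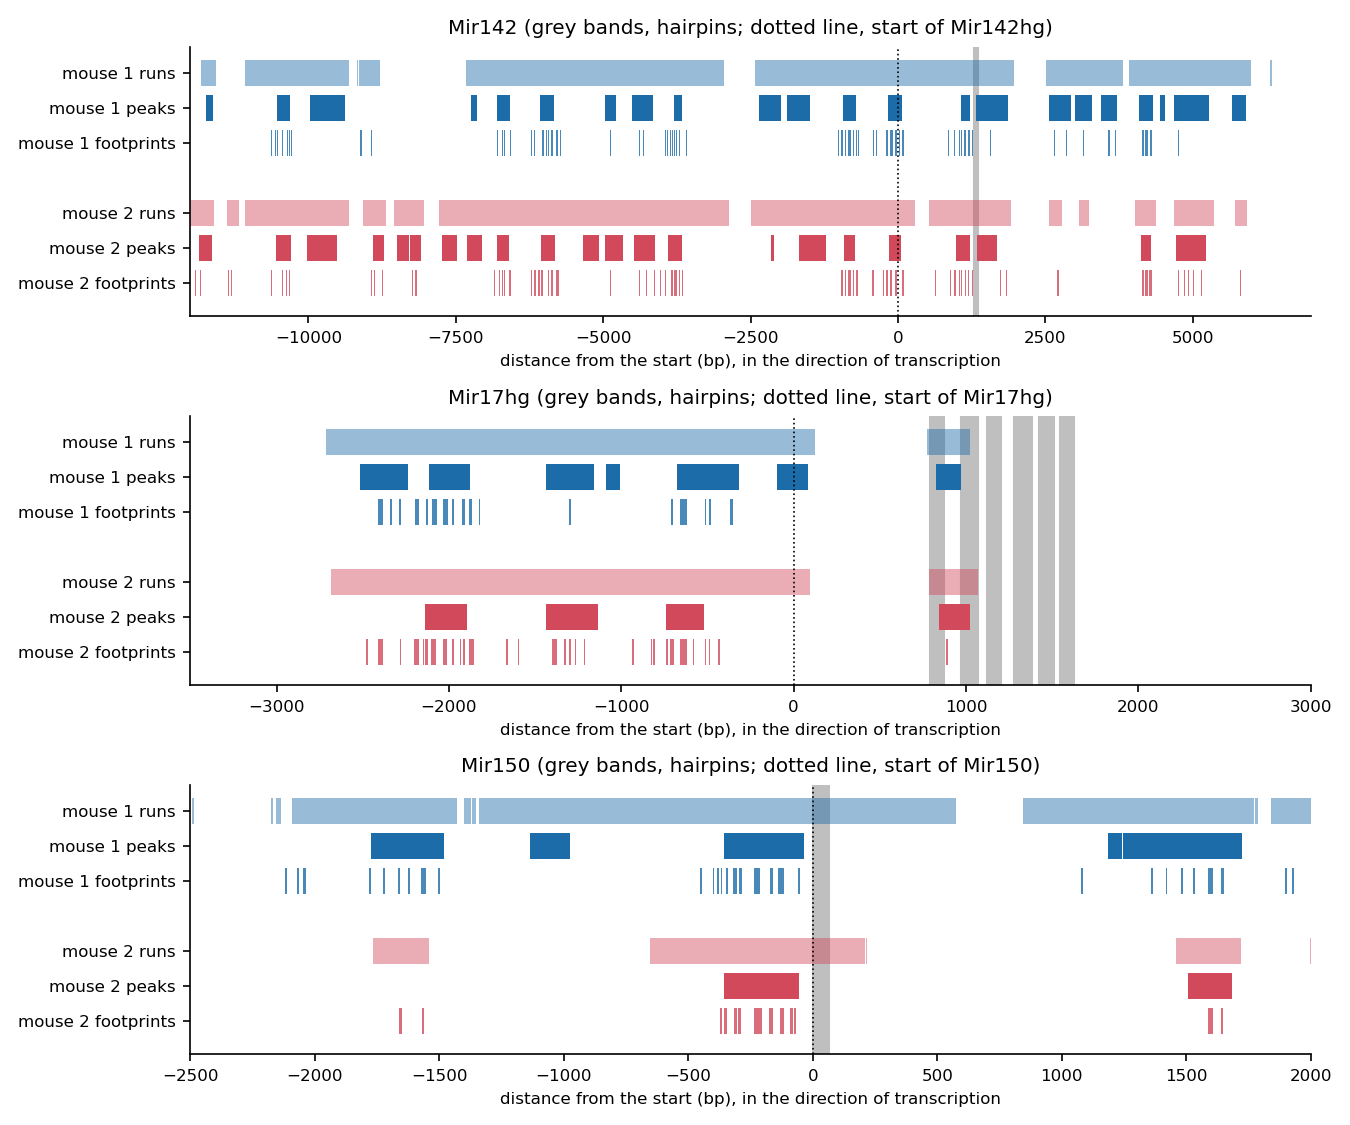
Runs, peaks and footprints of both mice around the starts of Mir142hg, Mir17hg and the Mir150 hairpin, against the distance in bp (grey bands, hairpins; dotted lines, starts). Runs of 4392 bp and 4385 bp in mouse 1 flank or cover the Mir142hg start, and at Mir17hg a run over the start stops before the hairpins.

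Mir17hg lies at chr14:115042879-115046727 on the plus strand. Its strongest peak, at chr14:115040761-115041000, was centred 1998 bp upstream of the annotated start, with signals of 5.87 in mouse 1 and 14.8 in mouse 2. The peak nearer to the start, chr14:115042201-115042560, had 2.21 and 7.502, and one between them, chr14:115041441-115041720, 0.868 and 2.79. All 3 were higher in mouse 2, and the GC content of the 3 was between 63.1% and 81.1%. Relative to the median of all shared peaks of like GC content, their log2 ratios were -0.22, 0.70 and 0.13. A peak on the start itself, at chr14:115042781-115042960, was called in mouse 1 only, with a signal of 0.727, although the longer list of mouse 2 held a peak there. RefSeq places a Mir17hg start at chr14:115044390, inside the cluster. The narrower stretch read around that start, chr14:115044140-115044439, held no peak in either mouse. The peaks that overlap Mir17 in both mice lay outside that stretch but within 1000 bp of that start.

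The strongest Mir17hg peak is shown as the strongest of the locus, on the plus strand with the same use of capitals.
Mir17hg upstream peak, chr14:115040761-115040980: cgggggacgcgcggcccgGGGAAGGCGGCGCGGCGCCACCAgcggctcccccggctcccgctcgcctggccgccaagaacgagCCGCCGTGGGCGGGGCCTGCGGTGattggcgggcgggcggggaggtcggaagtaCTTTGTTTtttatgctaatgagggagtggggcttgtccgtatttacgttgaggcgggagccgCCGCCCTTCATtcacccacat

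Footprints covered 85 and 79 of the 220 bases, 66 of them in both mice. The SP and KLF pattern GGGCGG matched 4 times, and 2 of the matches lay within footprints of both mice. The E2F pattern GGCGGGA, which can overlap GGGCGG, matched once, not within footprints. In all peaks of mouse 1, 26.6% and 7.21% held these patterns in a stretch of this length.

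The run over the Mir17hg start measured 2836 bp in mouse 1 and 2780 bp in mouse 2. It held 6 and 3 peaks and 17 and 30 footprints. It ended 124 bp and 96 bp past the annotated start in the 2 mice, upstream of the hairpins. The run that followed, of 241 bp and 278 bp, covered the first hairpins. Mir17 lay wholly within it in both mice and was overlapped in part by a peak of 0.498 and 0.5995. Mir18 lay in it over 53.1% of its length in mouse 1 and 100% in mouse 2. Mir19a, Mir20a, Mir19b-1 and Mir92-1, the hairpins farther along the transcript, were in no run in either mouse. The pairs of hairpins with common seeds were thus split in 1 case, Mir17 being in a run and Mir20a not, and together outside runs in the other.

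Mir150 lies at chr7:45121757-45121821 on the plus strand. The peak next to it ended 36 bp and 56 bp before the hairpin. It reached 9.40 and 13.9, higher than 94.8% and 92.2% of all peaks. The hairpin itself lay wholly within a run in both mice but under no peak.

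Strong peaks of the Mir150 window belonged to starts of neighbouring genes. The peak at Rpl13a, a ribosomal protein gene, had 18.1 in mouse 1 and 28.7 in mouse 2. The peak at Flt3l, the gene of the Flt3 ligand, had 7.83 and 12.3. Of the window's peaks, 13 of 17 in mouse 1 and 9 of 11 in mouse 2 lay within 1 kb of a start of another gene. That count includes the peak beside Mir150, since the antisense transcript Gm45552 starts at chr7:45121917. The 5 peaks with the highest signal were the same sites in both mice.

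Mir155 lies at chr16:84714140-84714204 on the plus strand, at the far end of the noncoding host Mir155hg (chr16:84703167-84715245). At the host start, the peak at chr16:84703201-84703540 had 1.14 in mouse 1 and 3.53 in mouse 2, above 46.9% and 74.0% of all peaks. Its neighbour at chr16:84702804-84703200 had 0.683 and 1.38. A run of 935 bp in mouse 1 and 912 bp in mouse 2 joined both peaks. The second start of Mir155hg, which RefSeq also gives at chr16:84713023, held no peak in either mouse.

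A peak on the Mir155 hairpin, chr16:84714101-84714195, was called in mouse 1 with a signal of 0.549. The longer list of mouse 2 held a peak there, and the hairpin lay wholly within a run in both mice. The lowest FDR over the hairpin was 8.59e-05 in mouse 1 and 0.0189 in mouse 2. Mir155 was the only 1 of the 11 hairpins with footprint bases, 10.8% of its length in mouse 1 and none in mouse 2.

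The stretch at the Mir155hg start is shown as the strongest peak of that window, on the plus strand.
Mir155hg start peak, chr16:84703221-84703480: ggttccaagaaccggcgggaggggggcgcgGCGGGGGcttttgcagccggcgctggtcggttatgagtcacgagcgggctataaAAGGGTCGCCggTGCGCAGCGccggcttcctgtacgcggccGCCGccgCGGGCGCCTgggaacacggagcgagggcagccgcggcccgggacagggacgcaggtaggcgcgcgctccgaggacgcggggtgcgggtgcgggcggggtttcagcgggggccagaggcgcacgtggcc

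Footprints covered 55 and 102 of its 260 bases, and 39 in both mice. The AP-1 pattern TGANTCA, the MYB pattern CNGTTA and the MYC pattern CACGTG each matched once, as did the SP and KLF pattern and the E2F pattern. None of these matches lay within footprints of both mice, and the last 2 lay within footprints of mouse 2. The AP-1 pattern was held by 6.74% of peaks at this length and the MYB pattern by 21.2%. For the MYC, the SP and KLF and the E2F patterns the shares were 7.28%, 28.8% and 8.12%.

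Mir146 lies at chr11:43374397-43374461 on the minus strand, far from any peak. The nearest was 13842 bp away in mouse 1 and 10748 bp away in mouse 2, and no run touched the hairpin. The strongest peak of the window, chr11:43358801-43359040, lay 15540 bp downstream, with signals of 1.70 and 1.80. On the upstream side chr11:43388304-43388588 had 0.753 and 0.519. A peak at chr11:43385210-43385520, beside the start of the noncoding Gm12148, was called in mouse 2 only, with 0.781, and it touched a run of mouse 1. The downstream peak is shown as the highest of the window, on the minus strand.
Mir146 downstream peak, chr11:43358801-43359000: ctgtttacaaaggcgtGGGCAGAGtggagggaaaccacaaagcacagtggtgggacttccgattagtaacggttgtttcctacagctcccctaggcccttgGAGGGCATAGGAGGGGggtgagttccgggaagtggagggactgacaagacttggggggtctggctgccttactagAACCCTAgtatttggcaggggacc

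Footprints covered 47 and 81 of its 200 bases, and 31 in both mice. The NF-kB pattern GGGNNTTCC matched once, not within footprints, and was held by 4.44% of peaks at this length. The RUNX pattern TGTGGTT and the MYB pattern CNGTTA each matched once, within footprints of mouse 2 only. These were held by 7.62% and 16.5% of peaks.

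Arpp21 lies at chr9:112065091-112235938 on the minus strand, with starts spread over 5 groups. The most upstream group, of 7 starts, held 1 peak in mouse 1, chr9:112234793-112234820 with 1.39, and 4 peaks in mouse 2. The mouse 2 peak overlapping it had 2.61. The noncoding 2900079G21Rik, on the other strand, also starts within 1 kb of each of these peaks except chr9:112235781-112235999 of mouse 2. The highest of the 4 in mouse 2, chr9:112235141-112235680, had 3.03 and overlapped no peak of mouse 1. The longer list of mouse 1 held a peak there, and a run of mouse 1 touched it. It overlapped another of the 4, chr9:112235121-112235400 with 2.60, so the 4 peaks are not 4 separate sites. The group of 4 starts at chr9:112217261-112217351 held the strongest start peak, chr9:112217281-112217520, with 8.93 and 9.83. RefSeq gives starts at both ends of that group. The group of 4 starts at chr9:112185769-112186093 held 1.90 and 2.74. The group of 9 starts at chr9:112187647-112188474 and that of 2 starts at chr9:112231902-112232501 held no peak in either mouse. The start group with the highest signal was thus the same in both mice, 18.5 kb into the gene.

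The strongest peak of Arpp21 was intronic. It lay at chr9:112207881-112208140, 27.9 kb downstream of the most upstream start, with 12.9 in mouse 1 and 18.3 in mouse 2. Another intronic peak, chr9:112219441-112219680, had 5.69 and 6.35. Both the intronic peak and the start peak are shown, on the minus strand.
Arpp21 intronic peak, chr9:112207901-112208140: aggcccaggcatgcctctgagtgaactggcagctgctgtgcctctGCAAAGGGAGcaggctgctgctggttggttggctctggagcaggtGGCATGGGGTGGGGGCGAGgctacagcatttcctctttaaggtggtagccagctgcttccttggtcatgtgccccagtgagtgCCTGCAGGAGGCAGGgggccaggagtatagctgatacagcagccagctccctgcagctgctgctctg
Arpp21 start peak, chr9:112217281-112217500: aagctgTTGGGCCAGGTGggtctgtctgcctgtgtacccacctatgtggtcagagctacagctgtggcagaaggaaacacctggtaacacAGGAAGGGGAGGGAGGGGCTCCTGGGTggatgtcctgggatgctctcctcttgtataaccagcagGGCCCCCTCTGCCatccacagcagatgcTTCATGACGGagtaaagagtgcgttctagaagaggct

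In the intronic stretch of 240 bases, footprints covered 61 and 44 bases, and 44 in both mice. The E protein pattern CAGCTG matched 3 times and CACCTG once, none of them wholly within footprints. The CTCF pattern AGGNGGCNG matched once, within footprints of both mice, and 15.1% of peaks held it. In the start stretch, CACCTG matched 2 times, 1 of them within footprints of both mice, and CAGCTG once, not within footprints. Of all peaks, 26.6% and 18.9% held these at 220 bases.

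Mir128-2, the miR-128 copy at chr9:112118636-112118711, lay far from these sites. It was in no run, and the nearest peak was 17515 bp away in mouse 1, with a signal of 1.01, and 6755 bp away in mouse 2, with 1.22. The sites differed between the mice, and each was in the longer list of the other.

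Across the 11 hairpins, 5 lay in a run in both mice, namely Mir17, Mir18, Mir142, Mir155 and Mir150. Of all 2196 microRNA genes, 8.29% did. Of the peaks that overlap a hairpin, that of Mir142 was the strongest, with 2.246 in mouse 1 and 3.69 in mouse 2. It covered only a part of Mir142, beginning at chr11:87756901 in mouse 1 and chr11:87756921 in mouse 2. The Mir142 peak on the other side of the hairpin start, chr11:87756641-87756800, had 6.22 and 10.03. Counting only runs with an FDR of at most 0.001 gave 4 hairpins, and requiring full cover also gave 4.

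Most peaks of the 6 windows were found in both mice. Of 65 peaks in mouse 1, 46 (70.8%) overlapped a peak of mouse 2, against 80.8% of all peaks. Of 67 in mouse 2, 46 (68.7%) overlapped a peak of mouse 1, against 66.1%. Of the 19 and 21 peaks not shared, 13 and 14 touched a run of the other mouse. Over all peaks, neither this count nor that of unshared peaks in the longer list of the other mouse was computed. Arpp21 had 10 unshared peaks in mouse 2, of which 8 were in the longer list of mouse 1. Mir150 had 7 unshared peaks in mouse 1 and 1 in mouse 2, so these 2 windows differed in opposite directions.

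At the 46 shared peaks, signal was higher in mouse 2 at 37, with a median log2 difference of 0.54. Of all 46817 pairs, 81.5% were higher in mouse 2, with a median of 0.75. Relative to the median of all shared peaks in the same of 10 groups by GC content, the median was -0.24, with 16 peaks above 0 and 42 within 1. The lowest ratio was -1.30, at the Mir142 peak chr11:87750601-87750800, with 4.95 in mouse 1 and 2.01 in mouse 2. The highest was 2.23, at Supt4a. The 2 shared peaks of Mir146 had ratios of 0.08 and -0.54. GC content moved with the ratio, and its part in these values was not tested.

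**Figure D4:**
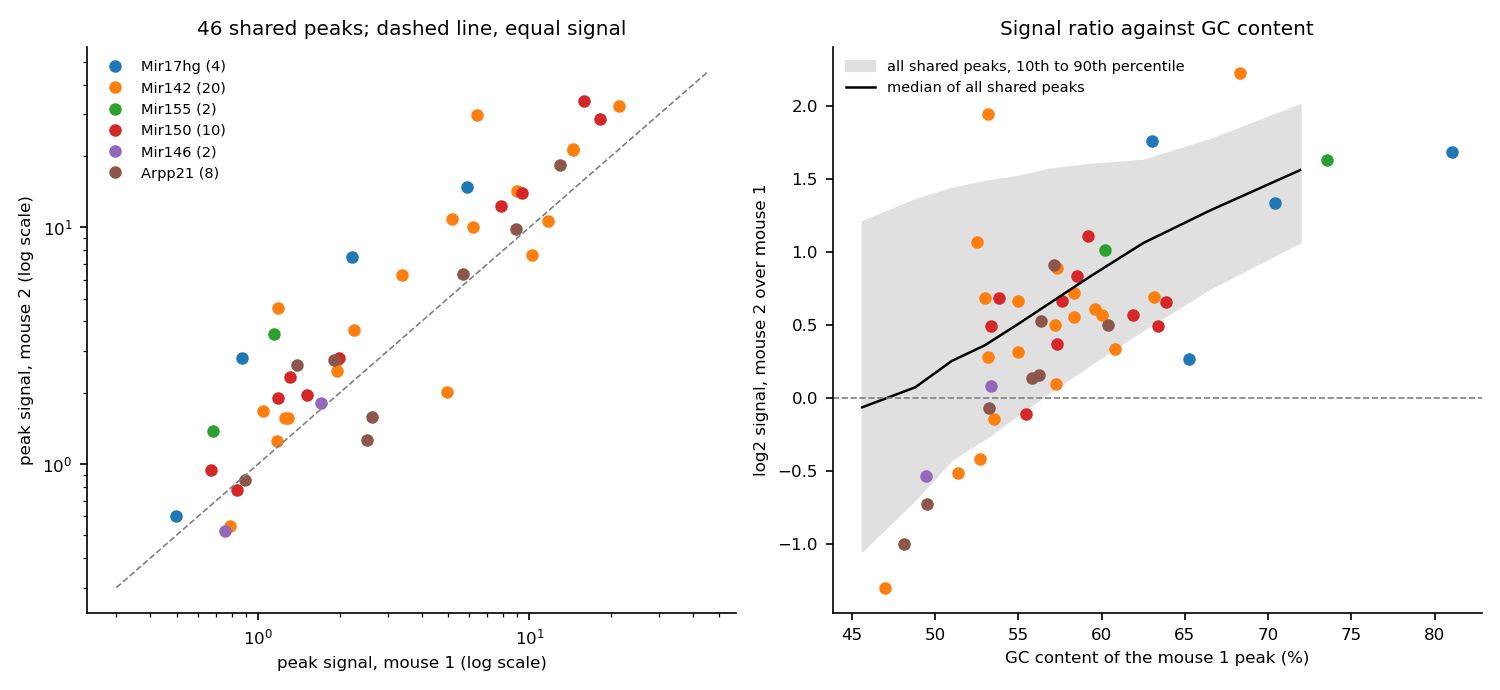
Left, signal of the 46 shared peaks in mouse 1 and mouse 2 on log axes, coloured by gene, with a dashed line at equal signal; 37 points lie above it. Right, log2 ratio of the same peaks against GC content, with the median and the 10th to 90th percentile of all 46817 pairs.

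Footprint bases per accessible kb differed less between genes than peaks did. They ranged from 65.0 at Mir146 to 110.1 at Arpp21 in mouse 1, and from 84.8 at Arpp21 to 148.5 at Mir150 in mouse 2. The values over all runs were 111.5 and 124.9. Arpp21 was the highest of the 6 in mouse 1 and the lowest in mouse 2. Of the footprints of the 6 windows, 56.2% in mouse 1 and 50.6% in mouse 2 overlapped a footprint of the other mouse, against 55.6% and 45.2% of all footprints.

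Other microRNA genes named for lymphocytes were read at their annotated starts, which are hairpin ends here as well. Of 31, 5 had a promoter peak in both mice, beside 11.4% of all microRNA genes, and 3 of the 5 shared a peak. Mir210 was the highest, with 6.24 and 14.9. Mir23a, Mir27a and Mir24-2, neighbours in a cluster, shared a peak of 3.42 and 4.58, and Mir342 had 1.55 and 3.81. Mir181a-2 had a peak of 0.472 in mouse 1 only. No peak lay at the other 25, which were Mir181a-1, Mir181b-1, Mir181b-2, Mir181c, Mir181d, Mir106b, Mir93, Mir25, Mir106a, Mir363, Mir20b, Mir128-1, Mir15a, Mir16-1, Mir15b, Mir16-2, Mir21a, Mir223, Mir146b, Mir29a, Mir29b-1, Mir26a-1, Mir221, Mir222 and Mir326. Mir128-1, the other miR-128 copy, had no peak within 20 kb in either mouse. Mir146b, which shares its name with Mir146, had 4 and 6 peaks within 20 kb.

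MicroRNA genes known from other tissues gave 1 of 31 in both mice, beside 11.4% of all microRNA genes. That gene was Mir124a-3, a neuronal microRNA gene, with 1.54 and 4.90. Mir34b, Mir34c and Mir203 had a promoter peak in mouse 2 only, at signals of 0.348 to 1.26. The other 27 had none, among them Mir9-1, Mir1a-1, Mir133b, Mir302a and Mir200a. The median gene of this list had 1 and 2 peaks within 20 kb, against 5 and 5 in the lymphocyte list. Over all microRNA genes the median density in such windows was 0.249 per 10 kb in each mouse. Clustered hairpins such as Mir23a, Mir27a and Mir24-2, each with 6 and 20 peaks, were counted separately in these medians.

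The genes that make and use microRNAs were open with few exceptions. Of 16, 15 had a promoter peak in both mice, against 56.6% of protein-coding genes. Tarbp2, a Dicer1 partner, had the highest signal, with 27.0 and 45.5, followed by Tnrc6c, a silencing scaffold, with 23.7 and 44.97. Ago2, the Argonaute that can slice its target, had 3.55 and 10.98. Ago4, another Argonaute, had no promoter peak in mouse 1 and one of 0.509 in mouse 2. Drosha had 13.1 and 24.0, Dgcr8 12.9 and 40.4 and Dicer1 6.68 and 22.6.

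**Figure D5:**
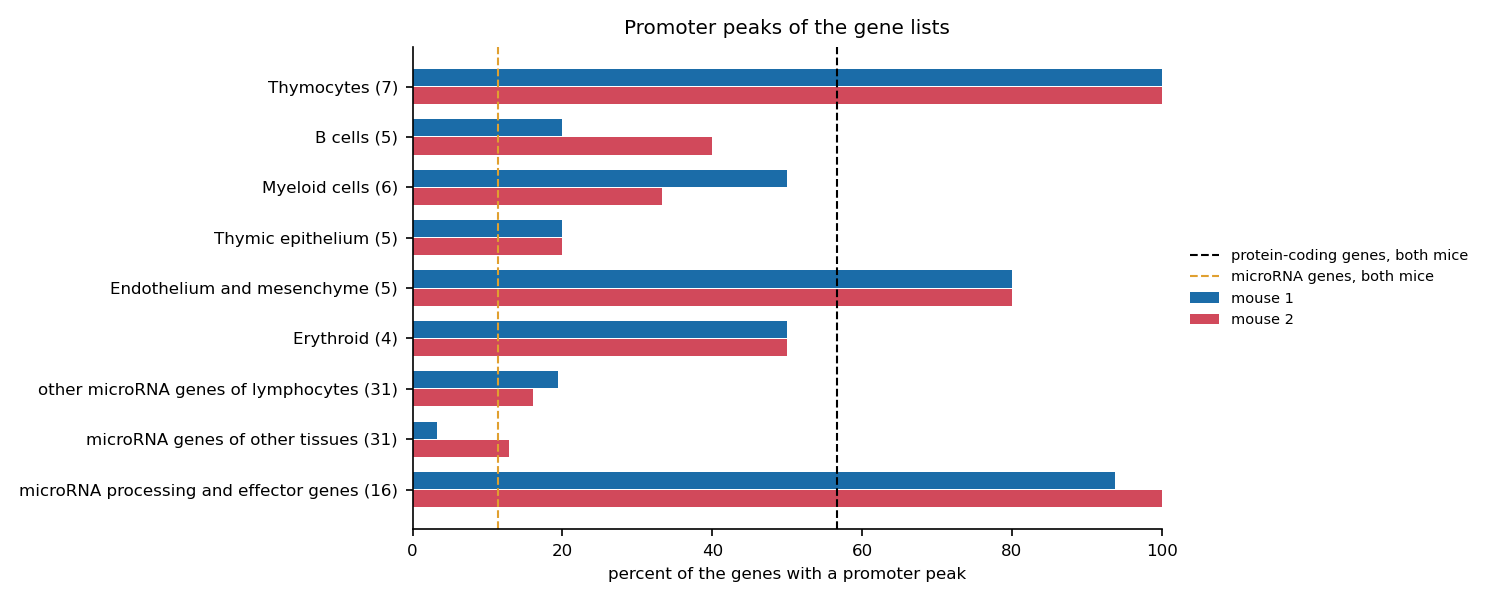
Percent of the genes of each list with a promoter peak in mouse 1 (blue) and mouse 2 (red), with the number of genes in brackets and dashed lines for all protein-coding and all microRNA genes. All 7 thymocyte markers and 15 of 16 genes of microRNA processing had a peak in both mice, beside 5 of 31 other lymphocyte microRNA genes.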

How the data were processed

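DNase-seq of thymus from 2 mice, 1 library each, was used. The labels name separate animals, and no p-value was computed, since there is 1 group. Per the labels and the text deposited with the files, the authors derived peaks and cut rates from filtered alignments of each library on mm10. The aligner, callers and thresholds were not given in the sources used here. The scale of the deposited peak signal is not named. It comes in whole steps within a library (100% of values below 2000 steps lay within 0.1 step of a whole number), which sets its precision; total reads are unknown. For cut rates the authors deposited an adjusted p-value, an FDR, only where it was below 0.05. Footprints carry 1 constant, so only positions were used.

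Touching cut-rate intervals were merged into runs. Genes and starts came from GENCODE M21 and sequence from GRCm38, with 0 intervals past a chromosome end. Peaks were shared when overlapping by at least 1 bp, and signals were compared over pairs that overlap each other most. The 17 named motifs, as 21 patterns, were searched on both strands. Tools were Python 3.11.15 with numpy 2.4.6, pysam 0.24.0, bedtools 2.31.1 and samtools 1.23.1. Interval counts were tested on simulated data, with 0 differences in 700 windows. Alternatives were the longer peak list, other flanks and promoter widths, stricter runs and overlaps, a GC correction and leaving out each mouse. Members, lists and motifs were chosen with earlier results of these data known. The named peaks are the 3 strongest of each window and those within 1000 bp of a start of the member or on its hairpin, and others named for a pattern were chosen after their values were seen. Some items that entered the counts are not reported here.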

Additional observations from a re-analysis of the deposited data

How the results depend on the processing

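Of 34 alternatives, 22 left the value within the spread between the mice or, for counts, within 1.5 times. With 2 mice, leaving out 1 gives the value of the other. For measures other than counts, those alternatives thus lie within that spread by construction and show no robustness. The median peak density of the 6 windows, 1.00 per 10 kb, was 1.34 with the longer list, 2.34 in gene bodies alone, 1.52 with 10 kb on either side and 0.660 with 50 kb. The share of a window in runs, 5.63%, was 54.9%, 8.74% and 3.67% in gene bodies and with 10 kb and 50 kb. The gene body of 4 of the 6 is a hairpin, so these 2 measures follow the flank by construction. Footprint bases per accessible kb, 115.3, were 9.14 in gene bodies and 75.8 when only footprints in peaks counted. Peaks shared by both mice, 69.7%, were 75.3% with the longer list and 66.7% with an overlap of 50%. The median log2 signal ratio of 0.54 became -0.24 relative to peaks of like GC content. That alternative takes off the median of the peak's own GC group, which ran from -0.06 to 1.56. Leaving out each mouse gave 0.883 to 1.17 peaks per 10 kb, 4 to 5 genes with a promoter peak, a median strongest signal of 9.39 to 16.5, 104.7 to 125.4 footprint bases per kb, 5.22% to 6.03% in runs and 5 hairpins. Using the host start in place of the hairpin was added after the data had been seen and gave 5 genes. Total reads are unknown, so no limit from depth could be set; the hairpin peaks at Mir17 and Mir155 had signals under 1. No paired analysis was possible because there is 1 group and no test.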
